A study of Mus musculus with 15 samples.

Results

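The collagen genes were taken as every row of the count table whose gene name has the form Col, a number, a and a number, such as Col1a1. The rule found 45 loci with 44 collagen names among 33603 loci, of which 23589 carry a gene name. Of these, 42 loci were counted on their own: 11 fibrillar collagens, 9 basement membrane collagens, 6 beaded filament collagens of type VI, 7 fibril-associated collagens, 3 short chain collagens, 4 transmembrane collagens and 2 others. The other 3 loci are named but enter no count. Bai2 with Col16a1 and Arfgap1 with Col20a1 are merged loci whose reads cannot be assigned to 1 gene, and a further Col16a1 row lies on the strand opposite to the annotated gene. The Col7a1 row also carries the name Mir711, a microRNA inside the gene, and was kept.

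Male C57BL/6 mice were fed ad libitum (AL), restricted to 60% of AL intake for 1 month from 4 months of age (DR), or restricted in the same way and then returned to AL feeding for 2 months (DR-AL). AL and DR mice were 5 months old and DR-AL mice 7 months old when tissues were taken, so re-feeding and age cannot be told apart in any comparison with DR-AL. RNA of 5 mice was pooled for each library, and hippocampus, hypothalamus, liver, colon (the intestinal mucosa) and epididymal fat gave 1 library per diet, 15 in all. There is thus no replicate of any tissue and diet, and a difference between diets within a tissue compares 2 libraries.

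Collagens are secreted proteins whose chains wind together into a triple helix. Fibrillar collagens build the tension-bearing fibrils of connective tissue and are made chiefly by fibroblasts and their relatives. Basement membrane collagens form or attach to the thin sheet under epithelia and around blood vessels, fat cells and muscle cells, with the type IV network as its scaffold. Fibril-associated collagens sit on the surface of fibrils, and transmembrane collagens stay anchored in the plasma membrane. In bulk tissue RNA, a lower level can mean fewer cells of the type that makes the gene or less RNA per cell, and these cannot be told apart.

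Libraries held 21767088 to 40500130 counts on named loci (median 26554699). Levels are given as counts or as CPM, counts scaled to the same total on named loci in every library. Adipocyte markers summed to 17801 to 28102 CPM in fat and to 157 CPM at most elsewhere, and colon epithelium markers summed to at least 14123 CPM in colon and to 31.4 CPM at most elsewhere. Of the 6 hepatocyte markers, Alb is listed at 0 in all 15 libraries, liver included, and the other 5 summed to 24549 to 32653 CPM in liver. The fat libraries were not alike: hepatocyte markers summed to 3214, 27.0 and 8.55 CPM in AL, DR and DR-AL fat, testis germ cell markers to 3.24, 428 and 2137 CPM, and epididymis markers to 908, 3188 and 5082 CPM.

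Summed over the 42 loci, epididymal fat gave the largest share of counts to collagens, and colon the smallest. In AL, DR and DR-AL libraries the share was 0.431%, 0.454% and 0.356% in fat, 0.101%, 0.107% and 0.0731% in liver, and 0.0924%, 0.101% and 0.0843% in hypothalamus. It was 0.0315%, 0.0327% and 0.0380% in hippocampus and 0.00582%, 0.00776% and 0.00642% in colon. The ranges of fat, hippocampus and colon did not overlap those of another tissue, while those of liver and hypothalamus did. By summed FPKM liver stood above fat in DR and DR-AL, with 462, 289 and 124 in AL, DR and DR-AL fat and 398, 423 and 286 in liver. These sums are not on 1 scale, since the deposited FPKM of a given CPM differed between libraries. Its median over collagens was 0.373, 0.320 and 0.357 FPKM per CPM in AL, DR and DR-AL liver and 0.106, 0.0659 and 0.0371 in fat.

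**Figure D1:**
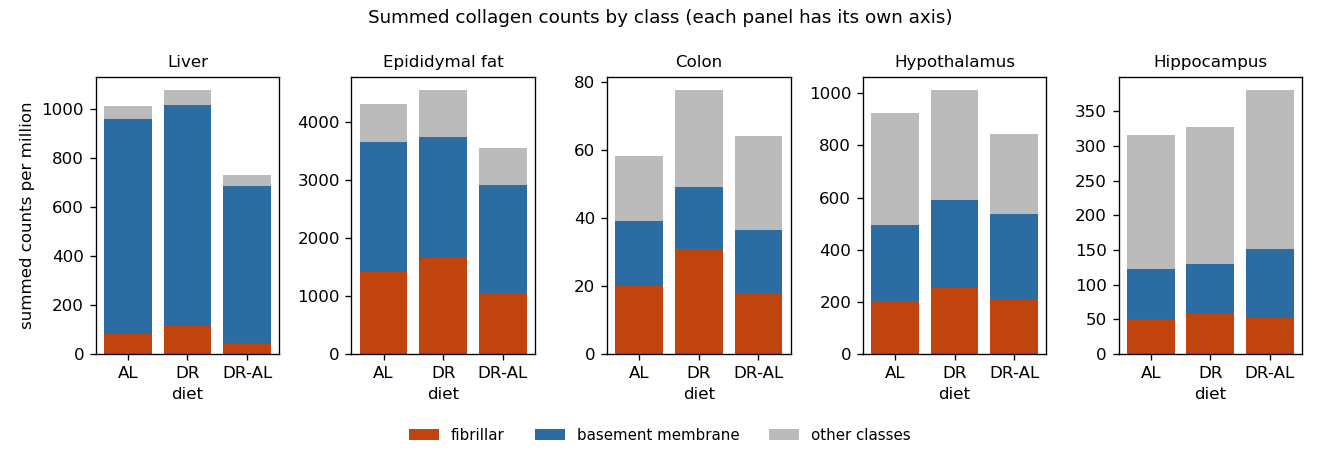
Summed collagen CPM in each library, by tissue (panels, each with its own axis from 0) and diet, split into fibrillar, basement membrane and other collagens. Basement membrane collagens fill 84.0 to 87.4% of the liver bars and 45.9 to 52.1% of the fat bars.

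The make-up of the sum differed by tissue. Basement membrane collagens made up 84.0 to 87.4% of collagen counts in liver, where Col18a1 alone gave most of them. They gave 45.9 to 52.1% in fat, 31.2 to 38.9% in hypothalamus, 23.6 to 33.1% in colon and 22.0 to 26.1% in hippocampus. Fibrillar collagens made up 29.6 to 36.4% in fat and 27.9 to 39.8% in colon, and only 6.41 to 10.6% in liver.

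By mean CPM, 22 of the 42 collagens were highest in fat, 12 in hypothalamus, 4 in liver and 4 in hippocampus, and none in colon. For 26 of the 42, all 3 libraries of the highest tissue lay above every library of the next tissue: 19 in fat, 6 in hypothalamus and 1 in liver. For the other 16, Col27a1, Col14a1, Col22a1, Col8a1 and Col23a1 among them, the libraries of the highest tissue and of the next one overlapped.

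**Figure D2:**
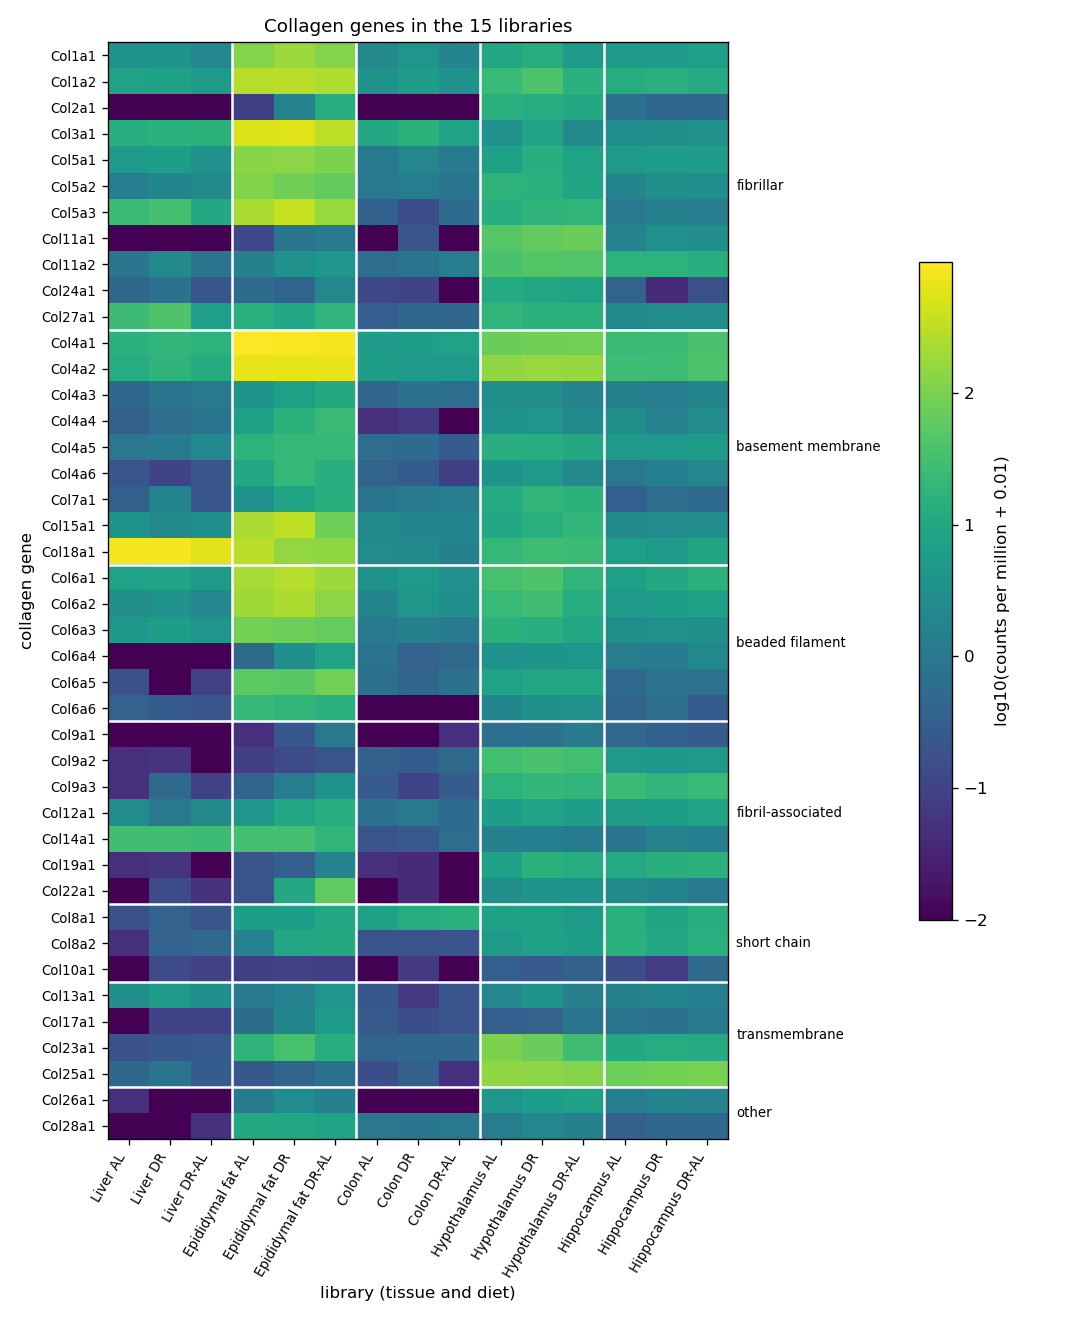
The 42 collagen genes (rows, by class) in the 15 libraries (columns, by tissue and diet), as log10(CPM + 0.01). Col4a1, Col4a2 and most type I, III, V and VI genes are brightest in fat, Col18a1 in liver, and Col11a1, Col9a2 and Col25a1 in brain.

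Tissues were compared over the 3 diets with edgeR's quasi-likelihood test, in which the tissues of 1 diet, which come from the same pool of mice, share a diet term. The 3 libraries of a tissue differ in diet and are not replicates of 1 diet. Of the 42 collagens, 41 passed the filter on low counts and Col10a1 (at most 13 counts in a library) did not. A gene was called at an adjusted p under 0.05. The test scales libraries by TMM, while ranks and overlaps use CPM. Relative to CPM, TMM moved every log2 fold change by -1.17 for fat against liver, -0.45 for fat against colon, -0.72 for colon against liver and -0.24 for hypothalamus against hippocampus.

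Fat exceeded liver for most collagens of both main classes. Of 41 collagens tested, 31 were higher in fat and 5 lower, against 41.6% of all genes tested higher and 28.6% lower. The fibrillar class had 8 of 11 members higher and 1 lower, and the basement membrane class 8 of 9 higher and 1 lower. The median log2 fold change was 3.76 over the collagens and 0.38 over all genes tested.

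The type I and III chains, which form the bulk of connective tissue fibrils, followed this order. Col1a1 (chr11:94936224-94953042, GRCm38, plus strand) had 3091, 3986 and 3196 counts in AL, DR and DR-AL fat, 283, 428 and 168 in hypothalamus, 227, 182 and 170 in hippocampus, 86, 85 and 51 in liver and 60, 141 and 46 in colon. The fat libraries lay above all others, and liver and colon overlapped. Col1a1 was higher in fat than in liver by 4.28 ± 0.27 on the log2 scale (SE, edgeR quasi-likelihood adjusted p = 4.3e-07).

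Col3a1 (chr1:45311538-45349706, plus strand), whose chain forms type III fibrils beside type I, had 13758, 13010 and 8489 counts in fat and at most 534 in any other library. Liver held 330, 340 and 392 counts and colon 279, 534 and 205, and these overlapped. In both brain regions Col3a1 was low, at 72 to 269 counts. Its log2 difference between the mean of the 2 brain regions and the mean of the 3 peripheral tissues was -4.06 ± 0.26 (edgeR adjusted p = 5.6e-08). That of Col1a2 was -0.61 ± 0.13 (edgeR adjusted p = 8.7e-04).

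The basement membrane genes Col4a1 and Col4a2, whose chains together build the common type IV network, were the most abundant collagens in fat. Col4a1 had 26148, 20010 and 23526 counts in AL, DR and DR-AL fat, 2244, 2636 and 2665 in hypothalamus, 996, 799 and 912 in hippocampus, 377, 421 and 417 in liver and 157, 203 and 193 in colon. In CPM, no library of 1 tissue overlapped with another tissue. The difference between fat and liver was 4.58 ± 0.21 on the log2 scale for Col4a1 and 4.40 ± 0.21 for Col4a2 (edgeR adjusted p = 8.9e-08 and 1.0e-07).

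Col18a1 (chr10:77052178-77166548, minus strand), which encodes the collagen that yields endostatin, was the exception among basement membrane genes. Its counts were 20792, 18686 and 14749 in AL, DR and DR-AL liver, 8112, 3459 and 4038 in fat, 631, 925 and 830 in hypothalamus, 270, 165 and 215 in hippocampus and 68, 82 and 39 in colon. Fat was lower than liver by a log2 fold change of -3.09 ± 0.36 (edgeR adjusted p = 2.3e-05). Hepatocyte markers were present in the AL fat library, which also held the most Col18a1 of the 3 fat libraries, and their part in that level was not tested.

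The other collagens lower in fat than in liver were Col27a1 (-1.82 ± 0.51), a fibrillar collagen of cartilage, Col14a1 (-1.17 ± 0.33), which binds type I fibrils, and the transmembrane collagens Col13a1 (-1.98 ± 0.56) and Col25a1 (-1.44 ± 0.47), all as log2 fold changes. Col14a1 had 713, 647 and 645 counts in liver and 848, 745 and 526 in fat, so its libraries in the 2 tissues overlapped in CPM, and the test called it lower in fat on the TMM scale. The libraries of Col27a1, Col13a1 and Col25a1 also overlapped in CPM. Col25a1 had only 12, 18 and 7 counts in AL, DR and DR-AL liver and 6, 9 and 18 in fat.

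Colon mucosa stood below both. Against colon, fat was higher for 38 of 41 collagens and lower for 2, Col8a1 and Col9a2 (40.4% and 30.3% of all genes tested). Col9a2 had only 2, 3 and 5 counts in AL, DR and DR-AL fat and 9, 9 and 13 in colon. The Col8a1 libraries of the 2 tissues overlapped in CPM. All 11 fibrillar and all 9 basement membrane members were higher in fat. Against liver, colon was higher for 5 of 41 and lower for 23 (31.5% and 32.5% of all genes). No fibrillar or basement membrane collagen was higher in colon, while 9 of 11 and 7 of 9 were lower.

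Col8a1, a short chain collagen found in vessel walls and the eye, was one of the 5 collagens higher in colon than in liver (4.83 ± 0.41 on the log2 scale, edgeR adjusted p = 1.7e-06). It had 196, 422 and 370 counts in AL, DR and DR-AL colon, 4, 8 and 5 in liver and 169, 140 and 275 in fat. The others were Col6a4, Col6a5, Col9a2 and Col28a1, each with at most 31 counts in any colon library. Colon was the tissue with the least collagen and so with the widest counting error.

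The 2 brain regions differed from each other in 1 direction for nearly every collagen called. Hypothalamus was higher than hippocampus for 23 of 41 collagens and lower for 1, against 15.5% and 15.3% of all genes tested. The members higher were 8 of 11 fibrillar and 6 of 9 basement membrane collagens, and the member lower was Col8a1 (-1.19 ± 0.32). With the libraries of the DR mice left out, 11 collagens were called in place of 24, and with those of AL or DR-AL mice left out, 16 or 22.

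Several fibrillar collagens were among those higher in hypothalamus. Col11a1, a chain of the thin fibrils of cartilage, had 1396, 2072 and 2217 counts in hypothalamus and 68, 104 and 77 in hippocampus, a log2 difference of 4.31 ± 0.56 (edgeR adjusted p = 6.5e-04). Its liver counts were all 0, and colon had 7 counts in DR and 0 in AL and DR-AL. Col24a1 had 354, 305 and 259 counts in hypothalamus and 15, 1 and 4 in hippocampus (5.47 ± 0.90, edgeR adjusted p = 0.0012).

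Col2a1, the major fibril of cartilage, had 441, 407 and 319 counts in hypothalamus, 29, 14 and 12 in hippocampus and 0 in all liver and colon libraries. It was higher in hypothalamus by 4.29 ± 1.30 on the log2 scale (edgeR adjusted p = 0.048). In fat it stood at 2, 39 and 349 counts, so that the DR-AL fat library overlapped with the hypothalamic range in CPM.

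Among basement membrane genes, Col7a1, which encodes the anchoring fibril of skin, had 360, 620 and 514 counts in hypothalamus and 12, 20 and 14 in hippocampus (4.80 ± 0.60 on the log2 scale, edgeR adjusted p = 2.3e-04). Col4a2 was higher by 2.08 ± 0.19 and Col4a1 by 1.2502 ± 0.18. Their hypothalamic counts were 4309, 5477 and 5083 for Col4a2 and 2244, 2636 and 2665 for Col4a1.

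Over both brain regions against the 3 peripheral tissues, 21 of 41 collagens were higher in brain and 12 lower (41.8% and 38.5% of all genes tested). The fibrillar class was divided, with 4 of 11 higher and 5 lower, and so was the basement membrane class, with 4 of 9 higher and 3 lower. Col25a1, a transmembrane collagen of neurons, gave the smallest adjusted p (7.83 ± 0.24 on the log2 scale, edgeR adjusted p = 2.1e-10). It had 4459, 4426 and 3835 counts in hypothalamus, 3164, 2835 and 2472 in hippocampus and at most 18 in any peripheral library. Col1a1, Col1a2, Col5a1, Col4a1 and Col15a1, all lower in brain, had the opposite sign once the fat libraries were left out, with log2 differences of 0.59, 0.99, 0.73, 1.39 and 0.49.

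Some collagens of the remaining classes were also high in brain. Col9a2, a fibril-associated chain of cartilage, had 891, 1179 and 973 counts in hypothalamus, 196, 147 and 121 in hippocampus and at most 13 elsewhere. Col23a1, a transmembrane collagen, had 3106, 2316 and 900 counts in AL, DR and DR-AL hypothalamus, 464, 815 and 360 in fat and 295 to 434 in hippocampus, and fat and hypothalamus overlapped in CPM. Col19a1, a rare fibril-associated collagen, held 219 to 522 counts in the brain libraries and at most 48 elsewhere. Col19a1, Col9a3, Col8a1 and Col8a2 were the 4 collagens highest in hippocampus by mean CPM. Col9a1, Col10a1, Col13a1 and Col17a1 stayed at a mean under 100 counts in every tissue.

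The remaining fibrillar collagens showed both kinds of distribution. Col1a2, the partner chain of Col1a1, had 7555, 6909 and 6867 counts in AL, DR and DR-AL fat, 716, 1307 and 495 in hypothalamus and at most 508 elsewhere. Col5a1 and Col5a2, chains of the type V fibrils that lie inside type I fibrils, had 2762 to 3341 and 1723 to 2896 counts in fat and at most 440 and 539 elsewhere. Col11a2, a further cartilage chain, had 1090, 1497 and 1387 counts in hypothalamus, 690, 523 and 339 in hippocampus and at most 115 elsewhere.

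Col27a1 was spread over liver, fat and hypothalamus, with 161 to 912, 227 to 528 and 509 to 545 counts, and these ranges overlapped. Hippocampus held 75 to 94 and colon 8 to 16. The network chains Col4a5 and Col4a6 had 449 to 615 and 264 to 486 counts in fat and 320 to 435 and 69 to 160 in hypothalamus, and at most 52 in liver and colon. Col15a1 had 2140 to 7408 counts in fat, 299 to 623 in hypothalamus and at most 96 elsewhere.

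Of the other members, Col6a2 had 3686 to 5646 counts in fat, Col6a3 1814 to 2310 and Col6a6 405 to 564. Col28a1 had 214 to 291 counts in fat, Col12a1 107 to 372 and Col22a1 5 to 1671. Col26a1 was highest in hypothalamus, at 127 to 229 counts.

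Type VI collagen, which forms beaded filaments around cells, had 5 of its 6 genes highest in fat. Col6a1 had 5887, 6432 and 5122 counts in AL, DR and DR-AL fat, 1041, 1357 and 578 in hypothalamus and at most 386 elsewhere. Col6a5 had 1441, 1214 and 2364 in fat and at most 313 elsewhere. Col6a4 was the sixth, with 99, 124 and 132 counts in hypothalamus and 14, 70 and 207 in fat.

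Genes that make, process and hold collagen were counted over lists chosen with earlier results of these data known. Unlike merged collagen loci, merged partner loci were kept. P3h3 of the synthesis list is merged with Gpr162, and Lamb2 of the basement membrane partners with Usp19, so their reads cannot be assigned to 1 gene. In fat against liver, 10 of 18 genes for synthesis, folding and secretion were higher and 4 lower, 11 of 14 processing and cross-linking genes were higher and 1 lower, and 11 of 15 basement membrane partners were higher and 1 lower, beside 41.6% and 28.6% of all genes tested. Lox, the enzyme that starts cross-linking, was higher by 6.34 on the log2 scale. In colon against liver, 11 of 14 processing genes and all 12 fibril-associated matrix genes were lower, beside 32.5% of all genes. For hypothalamus against hippocampus, 10 of 18 synthesis genes were higher and none lower, beside 15.5% and 15.3% of all genes. Sparc, a collagen-binding matrix protein, was higher in hypothalamus by 2.54.

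Levels of 2 genes were compared per length (FPKM, fragments scaled to transcript length and library size) only within a library, since the deposited FPKM of a given CPM differed between libraries. Col4a1 and Col4a2 chains enter the common type IV molecule in a fixed proportion of more Col4a1 than Col4a2. The FPKM ratio of Col4a1 to Col4a2 was 1.496, 1.32 and 1.23 in AL, DR and DR-AL fat, 1.14, 1.02 and 1.35 in liver and 0.923, 1.13 and 1.42 in colon. It was 0.853, 0.884 and 0.923 in hippocampus and 0.519, 0.479 and 0.526 in hypothalamus. All hypothalamic ratios lay below all others, and all fat ratios above those of both brain regions.

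**Figure D3:**
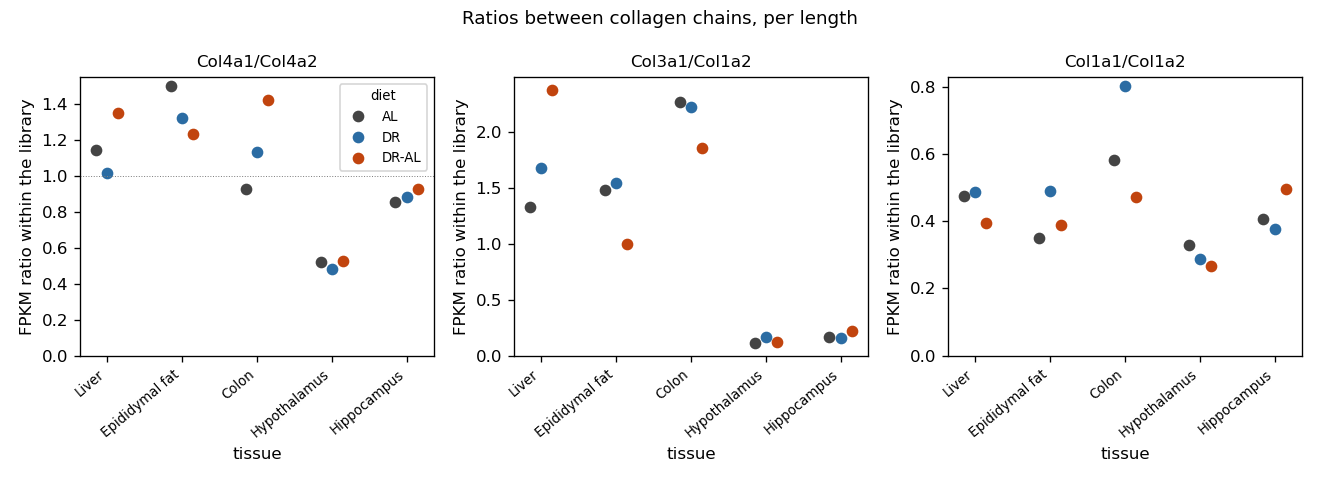
FPKM ratios of Col4a1 to Col4a2, Col3a1 to Col1a2 and Col1a1 to Col1a2 within each library (1 point per library, coloured by diet). Hypothalamus lies at 0.479 to 0.526 for Col4a1 to Col4a2, and both brain regions lie at 0.116 to 0.221 for Col3a1 to Col1a2, under the peripheral range of 1.00 to 2.38.

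The ratio of Col3a1 to Col1a2 split brain from periphery. It was 0.116 to 0.166 in hypothalamus, 0.154 to 0.221 in hippocampus, 1.00 to 1.55 in fat, 1.33 to 2.38 in liver and 1.86 to 2.27 in colon. Col1a1 to Col1a2, whose chains form type I collagen with more Col1a1 than Col1a2, was under 1 in all 15 libraries, at 0.268 to 0.803.

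Diets were compared within each tissue by a Z test on square roots of scaled counts with an adjusted p under 0.05 and a minimum fold change, both taken from the study's methods. "Called" below means past this test. It covers counting error alone, so a call says that 2 libraries differed.

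DR liver held slightly more of several collagens than AL liver. Of 38 collagens tested, 12 were higher in DR and 3 lower (31.6% and 7.89%, beside 18.0% and 9.92% of all genes tested), with 3 of 9 fibrillar members higher and none lower. Col4a2 rose from 308 to 394 counts and Col4a1 from 377 to 421, log2 fold changes of 0.54 and 0.34. Col27a1 went from 655 to 912 counts (0.66) and Col5a3, a minor chain of type V fibrils, from 609 to 736 (0.46). Serpinh1, the chaperone of procollagen, rose from 158 to 319 counts (1.20).

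After re-feeding, several fibrillar collagens of liver lay below both other diets. DR-AL liver had 4 of 38 collagens higher and 7 lower than AL (10.5% and 18.4%, beside 15% and 15.8% of all genes), and 2 higher and 16 lower than DR (5.26% and 42.1%, beside 16.9% and 24.0%). Of the 9 fibrillar members, 5 were lower and 1 higher against AL, and 7 lower and none higher against DR.

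Col27a1 and Col5a3 had the widest differences among fibrillar members of at least 100 counts. Col27a1 had 655, 912 and 161 counts in AL, DR and DR-AL liver, and Col5a3 had 609, 736 and 250. DR-AL was the lowest library for both, and in CPM Col27a1 fell from 26.5 and 41.9 to 6.57. The log2 fold change of DR-AL against AL was -2.01 for Col27a1 and -1.27 for Col5a3, and against DR it was -2.67 and -1.73. Col1a1 (86, 85 and 51 counts) and Col1a2 (189, 159 and 128) had log2 fold changes of -0.73 and -0.55 against AL, and Col3a1 (330, 340 and 392) was not called in any liver comparison.

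The stretches before the starts of these 2 genes are shown because their levels moved together in liver. They come from RefSeq (GRCm38.p6), run 5′ to 3′ on the gene's strand, and hold no annotated exon. Capitals mark 3 short promoter motifs on either strand. The letters of each motif are given with its share of promoters in the next paragraph. Col5a3 lies at chr9:20815068-20815317 on the minus strand and Col27a1 at chr4:63215162-63215411 on the plus strand. The Col27a1 stretch lies before the RefSeq start but within the span of the gene in the GRCm38 annotation (chr4:63214004-63334991), outside its exons.
Col5a3: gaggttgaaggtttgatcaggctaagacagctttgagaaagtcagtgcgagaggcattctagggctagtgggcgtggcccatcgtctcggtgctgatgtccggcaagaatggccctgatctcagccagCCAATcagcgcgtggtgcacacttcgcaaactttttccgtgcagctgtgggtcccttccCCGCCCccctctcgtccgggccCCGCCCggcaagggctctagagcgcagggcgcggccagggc
Col27a1: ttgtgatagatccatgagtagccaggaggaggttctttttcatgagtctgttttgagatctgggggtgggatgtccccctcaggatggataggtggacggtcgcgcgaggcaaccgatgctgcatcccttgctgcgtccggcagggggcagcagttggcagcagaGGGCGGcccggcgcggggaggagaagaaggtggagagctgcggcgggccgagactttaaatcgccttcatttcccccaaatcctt

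Both hold GGGCGG or its reverse complement, at 2 places in Col5a3 and 1 in Col27a1, and Col5a3 alone holds CCAAT. Over the 250 bases before the start, GGGCGG stood in 21 of 36 promoters of the 33 collagen genes in the RefSeq table (58.3%) and in 32.7% of all 32851 promoters. CCAAT stood in 33.3% and 33.8%, and TATAAA in 13.9% and 12.4%. A match is a run of letters and not a site of binding.

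Col18a1, by far the largest collagen of liver, had 20792 and 18686 counts in AL and DR and 14749 in DR-AL (841, 858 and 602 CPM). DR-AL was lower by a log2 fold change of -0.48 against AL and -0.51 against DR, and DR and AL were 0.03 apart and not called. Neither call remained at a fold change of at least 2. Summed fibroblast markers were 195, 188 and 323 CPM in AL, DR and DR-AL liver and hepatic stellate markers 57.5, 55.8 and 54.5 CPM, and their part was not tested. Among partners, Lamb3, a laminin chain of epithelia, went from 149 and 40 counts to 667 in DR-AL, and Ctgf, a target of TGF-beta signals, from 176 and 301 to 685. Of 15 basement membrane partners in DR-AL against AL, 2 were called higher and 7 lower, beside 15% and 15.8% of all genes.

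**Figure D4:**
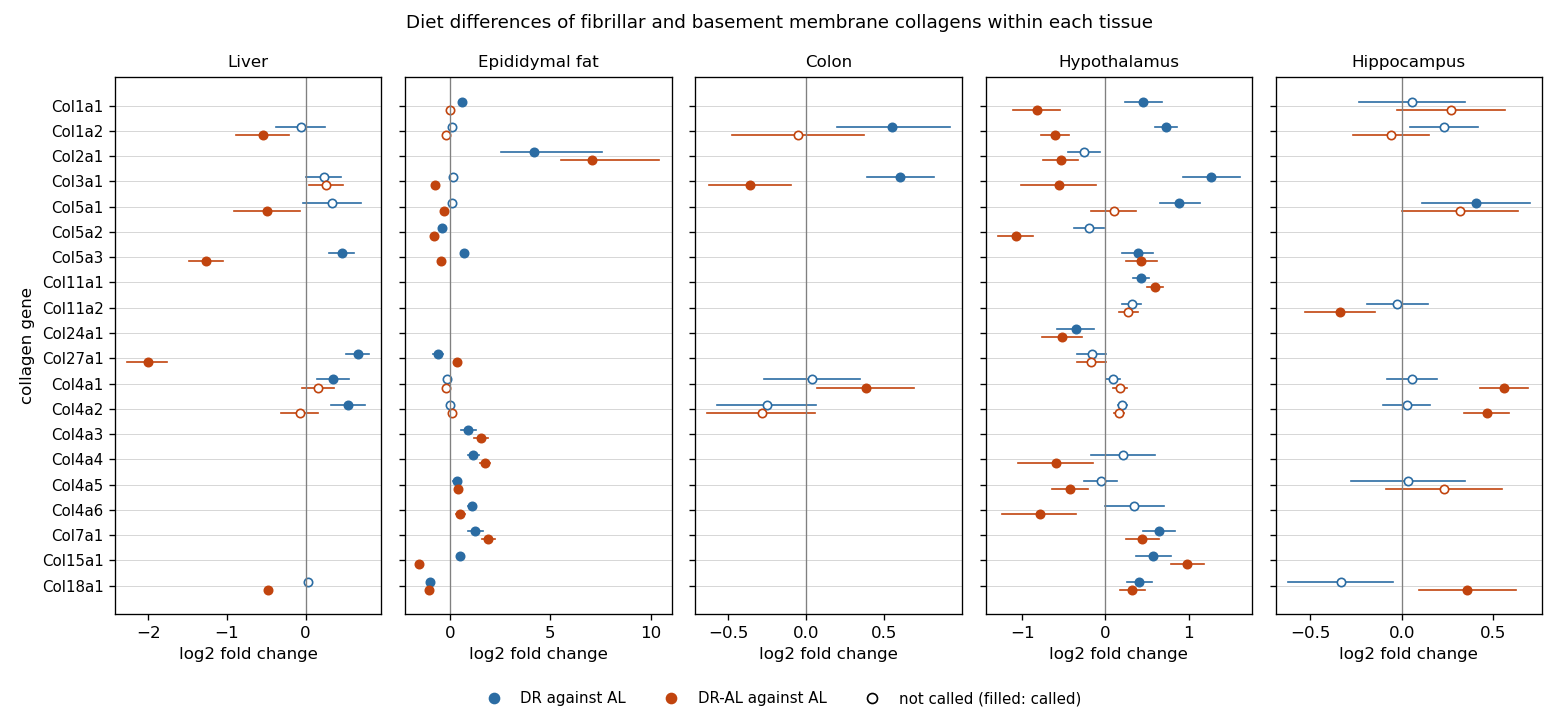
Log2 fold changes of DR against AL (blue) and DR-AL against AL (red) for fibrillar and basement membrane collagens with a mean of at least 100 counts in the tissue (panels with their own axes). Lines are 95% intervals for counting error, and filled points passed the Z test and the fold limit. In hypothalamus Col1a1, Col1a2 and Col3a1 lie above 0 in DR and below 0 in DR-AL.

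Epididymal fat gave the most calls of the 5 tissues in each comparison. In DR against AL, 21 of 42 collagens were higher and 3 lower (50.0% and 7.14%, beside 35.2% and 10.4% of all genes tested). DR-AL against AL gave 22 higher and 12 lower (52.4% and 28.6%, beside 46.0% and 11.9%), and DR-AL against DR 16 higher and 13 lower (38.1% and 31.0%, beside 38.3% and 13.3%). In fat the shares of collagens called higher thus lay near the background after re-feeding. With DESeq size factors in place of total counts, which shifted all log2 fold changes by -0.19, -0.34 and -0.15, the collagens split into 17 higher and 7 lower, 16 and 16, and 16 and 16.

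The abundant type IV chains were not called with counts scaled to the total. Col4a1 had 997, 877 and 860 CPM in AL, DR and DR-AL fat and Col4a2 653, 657 and 682 CPM. With size factors Col4a1 was called lower, at log2 fold changes of -0.37 in DR and -0.55 in DR-AL against AL, and Col4a2 was not called. The network chains Col4a3 and Col4a4, known from kidney basement membranes, were called in all 3 comparisons: Col4a4 had 189, 367 and 650 counts and Col4a3 97, 156 and 293. Against AL the log2 fold changes in DR-AL were 1.72 for Col4a4 and 1.53 for Col4a3. Summed epididymis markers (908, 3188 and 5082 CPM) and testis germ cell markers (3.24, 428 and 2137 CPM) had the same order over the 3 fat libraries. Among the epididymis markers, Lcn5, Lcn8 and Lcn9 did not, being highest in DR. The part of these markers was not tested. With FPKM in place of counts, Col4a3 was at -0.0675 in DR-AL against AL, and Col4a3 and Col4a4 were at -0.18 and -0.29 in DR-AL against DR. In DR against AL, FPKM also gave Col1a1, Col5a3 and Col15a1 the opposite sign (-0.18, -0.20 and -0.43), where counts gave 0.57, 0.67 and 0.48. With size factors this Col15a1 value was 0.29 and no longer called. Col1a1 in DR-AL against AL, at -0.01 by total counts, was then called lower (-0.35). The deposited FPKM of a given CPM was lower in DR and DR-AL fat than in AL fat.

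Col4a3 and Col4a4 lie head to head on chromosome 1, Col4a3 at chr1:82586921-82722059 on the plus strand and Col4a4 at chr1:82448423-82586849 on the minus strand of GRCm38. The 71 bases between their starts (chr1:82586850-82586920, RefSeq GRCm38.p6) are shown in the direction of Col4a4, since both genes were called higher in fat, and hold none of the 3 motifs.
Col4a3 and Col4a4, shared start: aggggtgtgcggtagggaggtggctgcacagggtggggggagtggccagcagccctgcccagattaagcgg

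A pair of other basement membrane genes fell. Col15a1, which encodes a collagen of vessel and muscle basement membranes, had 6096 and 7408 counts in AL and DR and 2140 in DR-AL fat. Its log2 fold change in DR-AL was -1.57 against AL and -2.05 against DR. Col18a1 had 8112 counts in AL and 3459 and 4038 in DR and DR-AL, -1.03 and -1.07 against AL, in the order of the hepatocyte markers (3214, 27.0 and 8.55 CPM), whose part was not tested. Nid2, a linker of laminin and type IV collagen, went from 2240 counts in DR to 907 in DR-AL (-1.56).

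Of the fibrillar collagens, Col3a1, the most abundant in fat, fell most in counts after re-feeding. On the log2 scale Col5a2 fell more against AL and Col5a3 more against DR. It had 13758, 13010 and 8489 counts in AL, DR and DR-AL fat, and log2 fold changes of -0.76 against AL and -0.88 against DR. Col5a3 had 6095, 8450 and 4648 counts, higher in DR (0.67) and lower in DR-AL (-0.45 against AL and -1.12 against DR). Col5a2 had 2896, 1871 and 1723 counts and was lower in both (-0.43 and -0.81 against AL). Col1a2, at 7555, 6909 and 6867 counts, was not called with counts scaled to the total, and with size factors it was called lower in DR-AL, by log2 fold changes of -0.54 against AL and -0.42 against DR.

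Lox and Eln, for cross-linking and elastic matrix, were lowest in DR. Lox had 2145, 759 and 2819 counts in AL, DR and DR-AL fat, and Eln, which encodes elastin, had 2787, 1192 and 4325. Smooth muscle markers summed to 1166, 3453 and 1129 CPM, highest in DR for 5 of 5 markers, and fibroblast markers to 1418, 1444 and 1432 CPM. Of 18 synthesis genes, 5 were called higher in DR than in AL and none lower, beside 35.2% and 10.4% of all genes tested.

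A pair of minor collagens showed the widest differences. Col22a1, which marks tissue junctions in muscle, had 5, 237 and 1671 counts in AL, DR and DR-AL fat, and Col2a1 had 2, 39 and 349. Their DR-AL libraries lay above AL by log2 fold changes of 8.18 (95% counting interval 7.10 to 9.95) and 7.06 (5.52 to 10.4). Testis germ cell markers, 5 of 5 lowest in AL and highest in DR-AL, and summed epididymis markers had the same order, and their part was not tested. Of the epididymis genes, Lcn5, Lcn8 and Lcn9 were highest in DR, and Crisp1 and Adam7 in DR-AL.

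**Figure D5:**
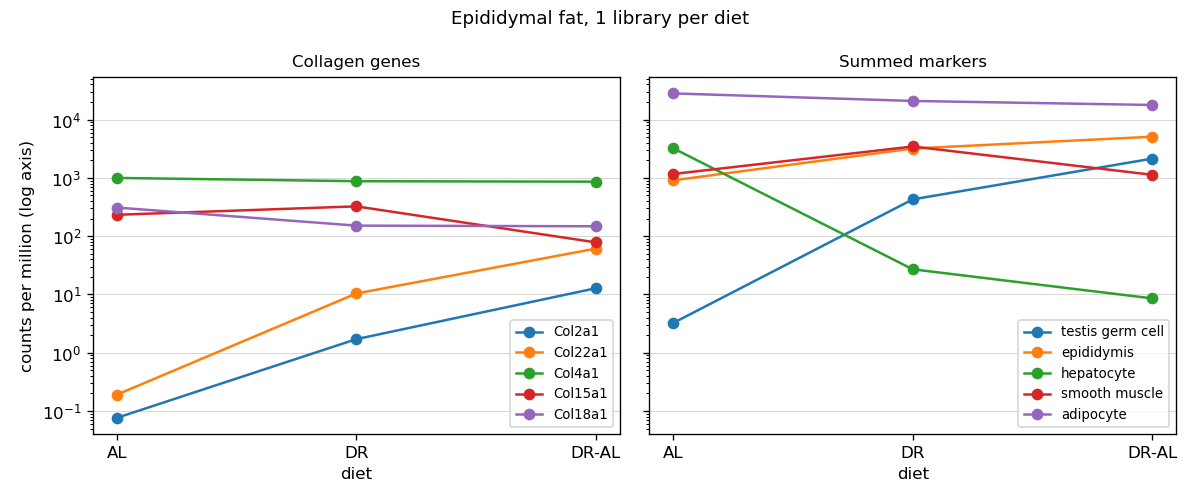
Levels in CPM (log axis) of 5 collagen genes (left) and of summed cell type markers (right) in the AL, DR and DR-AL fat libraries, 1 library each. Col2a1 and Col22a1 increase from AL to DR-AL as do the testis germ cell markers (3.24, 428 and 2137 CPM), while Col4a1 stays between 860 and 997 CPM.

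Colon mucosa held more of the main fibrillar collagens in DR than in AL. Of 39 collagens tested, 8 were higher in DR and none lower (20.5% and 0%, beside 9.04% and 10.6% of all genes tested), and 5 of the 8 were fibrillar. Col3a1 had 279, 534 and 205 counts in AL, DR and DR-AL, Col1a1 60, 141 and 46 and Col1a2 100, 185 and 91. DR was the highest library for each of the 3, and the log2 fold changes of DR against AL were 0.60, 0.90 and 0.55. No basement membrane collagen was called. The call of Col11a1 rests on 7 counts in DR and 0 in AL. The 8 calls became 2 at a fold change of at least 2, and 2 with an assumed coefficient of variation of 0.1 between pools.

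DR-AL against AL gave fewer calls in colon, with 4 of 39 collagens higher and 2 lower (10.3% and 5.13%, beside 5.83% and 8.50%). Against DR, 1 was higher and 8 lower (2.56% and 20.5%, beside 6.78% and 7.67%), and 5 of the 8 were fibrillar. Col8a1 rose in both DR (0.77) and DR-AL (1.00) against AL. Smooth muscle markers summed to 53.8, 70.1 and 26.8 CPM in AL, DR and DR-AL colon, with 5 of 5 highest in DR and lowest in DR-AL. Fibroblast markers had another order, summing to 12.8, 15.8 and 18.3 CPM, highest in DR-AL. The part of these markers was not tested. Of 12 fibril-associated matrix genes, 4 were called higher in DR than in AL and none lower (9.04% and 10.6% of all genes), and Postn, a matrix protein made by fibroblasts, had 138, 356 and 110 counts.

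Hypothalamus gave a share of collagen calls far above its background. That background holds all genes with at least 1 count, while 32, 36 and 32 collagens had over 100 counts in AL, DR and DR-AL. Genes with more counts pass the Z test at smaller differences, and the part of abundance was not tested. In DR against AL, 15 of 42 were higher and 2 lower (35.7% and 4.76%, beside 4.33% and 2.72% of all genes tested). DR-AL against AL gave 9 higher and 15 lower (21.4% and 35.7%, beside 6.06% and 9.02%), and DR-AL against DR 1 higher and 16 lower (2.38% and 38.1%, beside 2.82% and 6.80%). Few passed a fold change of at least 2: 2, 3 and 8 collagens in the 3 comparisons.

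The type I and III chains were highest in DR and lowest in DR-AL. Col3a1 had 101, 269 and 72 counts in AL, DR and DR-AL hypothalamus, Col1a1 283, 428 and 168 and Col1a2 716, 1307 and 495. Their log2 fold changes in DR against AL were 1.27, 0.45 and 0.73, and in DR-AL against DR -1.82, -1.28 and -1.33. Col5a1 followed in DR (215 to 440 counts, 0.89), and Col5a2 was lower in DR-AL than in AL (539 and 268 counts, -1.08).

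The 250 bases before the start of Col3a1 (chr1:45311288-45311537, plus strand, RefSeq GRCm38.p6) are shown since this gene was called in hypothalamus, fat and colon. Capitals mark its 1 TATAAA, and no CCAAT or GGGCGG stood in the window.
Col3a1: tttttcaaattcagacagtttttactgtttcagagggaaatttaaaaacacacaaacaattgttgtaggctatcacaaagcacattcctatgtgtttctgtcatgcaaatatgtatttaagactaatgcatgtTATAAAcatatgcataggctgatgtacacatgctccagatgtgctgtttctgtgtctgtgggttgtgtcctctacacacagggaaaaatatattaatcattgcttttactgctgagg

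Markers of cells of the brain's coverings moved in the same order. Meningeal fibroblast markers summed to 23.4, 60.04 and 11.6 CPM in AL, DR and DR-AL hypothalamus, with all 5 of 5 highest in DR and lowest in DR-AL. Slc22a6, listed at 0 in liver, fat and colon, had 5.49, 16.1 and 0.641 CPM. Smooth muscle markers summed to 27.0, 69.8 and 33.9 CPM, with 4 of 5 highest in DR. Pericyte markers stayed at 154 to 172 CPM. Fibroblast markers had another order as a sum, at 508, 538 and 594 CPM, which was also the order of neuron markers (2370, 2626 and 2963 CPM). This fibroblast sum was higher in AL, DR and DR-AL hippocampus (791, 765 and 780 CPM), where collagen was lower. Whether it follows fibroblasts in brain was not tested. Its markers Dcn, Lum and Dpt are also among the fibril-associated matrix genes counted below. The part of all these markers in the collagen levels was not tested. Small proteoglycans of fibrils were highest in DR and lowest in DR-AL: Fmod had 463, 1756 and 105 counts and Ogn 284, 894 and 73. Of 12 fibril-associated matrix genes, 7 were called higher and 1 lower in DR against AL (4.33% and 2.72% of all genes), and 7 lower and none higher in DR-AL against DR (6.80% and 2.82%).

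Other collagens of hypothalamus had other orders. Col23a1 had 3106, 2316 and 900 counts, which is -0.57 for DR and -1.86 for DR-AL against AL on the log2 scale, the largest against AL among collagens of at least 100 counts there. Col11a1 had 1396, 2072 and 2217 counts and was higher in both (0.43 and 0.59). Col25a1, at 4459, 4426 and 3835 counts, was not called.

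The basement membrane class divided in DR-AL hypothalamus, with 3 of 9 higher and 4 lower than in AL (6.06% and 9.02% of all genes tested). Col15a1 had 299, 491 and 623 counts (0.99 in DR-AL against AL) and Col18a1 631, 925 and 830 (0.32). The network chains Col4a3 to Col4a6 were lower in DR-AL, and Col4a6, at 114, 160 and 69 counts, had a log2 fold change of -0.79 against AL. Col4a1 and Col4a2 were not called. Of 15 basement membrane partners, 10 were lower in DR-AL than in DR and none higher (6.80% and 2.82% of all genes tested). Of the 6 beaded filament genes, Col6a1 (1041, 1357 and 578 counts), Col6a2 (705, 957 and 403) and Col6a3 (492, 472 and 299) were lower in DR-AL than in AL, Col6a6 (58, 106 and 105) was higher, and Col6a4 and Col6a5 were not called.

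In hippocampus more collagens were higher than lower after re-feeding. DR against AL gave 5 of 42 collagens higher and 5 lower (11.9% each, beside 1.36% and 2.67% of all genes tested), and DR-AL against AL 12 higher and 2 lower (28.6% and 4.76%, beside 3.99% and 2.16%). DR-AL against DR gave 9 higher and none lower (21.4% and 0%, beside 3.63% and 1.26%). Under an assumed coefficient of variation of 0.1 between pools, 0, 1 and 0 collagens were called in the 3 comparisons.

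Of the basement membrane class, Col4a1, Col4a2, Col4a6 and Col18a1 were called higher in DR-AL than in AL. Col4a1 had 24.6, 25.6 and 36.2 CPM in AL, DR and DR-AL hippocampus and Col4a2 28.0, 28.5 and 38.6 CPM. DR-AL was the highest library for both, with log2 fold changes of 0.56 and 0.46 against AL. Col4a6 had 40, 45 and 52 counts and a log2 fold change of 1.05. Col6a1 had 6.99, 10.3 and 15.3 CPM, 1.13 higher in DR-AL than in AL on the log2 scale.

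Of the 5 members lower in DR hippocampus, 3 were short chain or fibril-associated, and the others were Col4a4 and Col24a1, the latter with 15 and 1 counts. Col8a1 had 15.1, 9.13 and 12.96 CPM, Col8a2 15.4, 10.2 and 14.6 CPM and Col9a3 26.0, 18.3 and 24.3 CPM in AL, DR and DR-AL. DR was the lowest library for all 3, with log2 fold changes of -0.72, -0.60 and -0.51 against AL. Choroid plexus markers, with Aqp1 in a locus merged with Fam188b, summed to 2831, 1737 and 2749 CPM in these libraries, and their part was not tested. Meningeal fibroblast markers were at 26.5, 30.4 and 27.1 CPM.

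The 15 libraries allow 1 test with more than 1 library per diet, for a difference shared by the 5 tissues. Since 1 pool of mice gave all 5 tissues of a diet, these libraries are not independent. In edgeR's quasi-likelihood test no collagen of 41 was called in DR against AL, DR-AL against AL or DR-AL against DR, and the smallest adjusted p were 1.00, 0.85 and 0.98. Of all genes tested, 0.00572% were called higher and 0.00572% lower in the first, 0.00572% and 0% in the second, and 0.00572% and 0.00572% in the third. At an unadjusted p under 0.05 there were 2, 3 and 7 collagens, and DESeq2 also called 0 in each.

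Of the 7 with such a p in DR-AL against DR, 4 were fibrillar: Col1a1 (-0.73 ± 0.19 on the log2 scale), Col1a2 (-0.61 ± 0.15), Col5a1 (-0.59 ± 0.17) and Col3a1 (-0.69 ± 0.27). In CPM, Col1a1 was lower in DR-AL than in DR in 4 of the 5 tissues and higher in hippocampus. Col1a2 was lower in all 5 and Col3a1 in 3, with liver and hippocampus the other way. The fibrillar median was -0.35 and that of the basement membrane class -0.03, beside 0.02 over all genes tested. None of these passed the correction.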

How the data were processed

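Whole-tissue RNA was sequenced after ribosomal RNA depletion, stranded and paired-end. The authors deposited, for each library, read counts per gene and FPKM. Per the labels, the processing notes name the mm9 build and DESeq2, without a version, while the study's methods name mm10, and the tool's settings are not given in the sources used here. Table positions resemble mm9, so printed coordinates come from the GRCm38 annotation or RefSeq.

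The collagens and partner lists were chosen with earlier results of these data known. Raw counts were scaled to the total on named loci, and loci without a gene name were left out. Diets within a tissue were compared by the Z test on square roots of scaled counts (at least 1 count over the 3 libraries, Benjamini-Hochberg adjusted p under 0.05, fold change at least 1.25, pseudocount 0.5). It measures counting error only, with 1 pooled library per tissue and diet, so no p is given. Tissues, and diets over tissues, were compared with edgeR 4.0.16 (TMM, filterByExpr, quasi-likelihood test, tissue and diet terms) in R 4.3.3. DESeq2 1.42.0 served as an alternative. Intervals of 95% cover counting error only. Scripts ran in Python 3.11.15 and were tested on simulated data. Fibrillar and basement membrane members with a mean of at least 100 counts in a tissue are described by value. Other members are given by range, or by value where they moved most in a comparison. Partners are named only if called, averaging 100 counts or more, and among the 3 largest absolute fold changes of a comparison, and not all of these are named. The closing section gives the alternatives: other scaling, filters, fold limits, FPKM, an assumed spread between pools, another tool and libraries left out.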

Additional observations from a re-analysis of the deposited data

Results flagged for a closer look

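A collagen is given here where it had a mean of at least 100 counts in both tissues, was called in opposite directions by the same diet comparison, and differed by at least 2 on the log2 scale, a choice made after the values were seen. The difference between tissues was not tested, since each tissue and diet has 1 library. In DR against AL, Col8a2 had a log2 fold change of 2.60 in fat and -0.60 in hippocampus, 3.20 apart.

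In DR-AL against AL, Col15a1 was at -1.57 in fat and 0.99 in hypothalamus (fat minus hypothalamus -2.56), Col2a1 at 7.06 and -0.54 (7.60) and Col4a4 at 1.72 and -0.59 (2.31). Col27a1 was at -2.01 in liver and 0.35 in fat (-2.36), and Col6a1 at -0.92 in hypothalamus and 1.13 in hippocampus (-2.05). With DESeq size factors, this Col27a1 value in fat was 0.0163 and was no longer called. In DR-AL against DR, Col15a1 was at -2.05 in fat and 0.41 in hypothalamus (-2.46), and Col27a1 at -2.67 in liver and 0.96 in fat (-3.62).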

How the results depend on the processing

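The diet comparisons within tissues have no replicate, and their counts of collagens called depend on the fold limit and on the spread assumed. In the order DR against AL, DR-AL against AL and DR-AL against DR, the counts were 15, 11 and 18 in liver, 24, 34 and 29 in fat, 8, 6 and 9 in colon, 17, 24 and 17 in hypothalamus and 10, 14 and 9 in hippocampus. At a fold change of at least 2 they were 8, 5 and 8 in liver, 15, 19 and 12 in fat, 2, 1 and 4 in colon, 2, 3 and 8 in hypothalamus and 1, 3 and 1 in hippocampus. With an assumed coefficient of variation of 0.1 between pools they were 5, 4 and 9 in liver, 2, 1 and 2 in colon, 3, 8 and 10 in hypothalamus and 0, 1 and 0 in hippocampus.

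The deposited FPKM of a given CPM fell over the fat libraries, with collagen medians of 0.106, 0.0659 and 0.0371 in AL, DR and DR-AL. Among fibrillar and basement membrane fold changes called by counts, 11 in fat changed sign with FPKM. The part of this scale was not tested. They were Col1a1 (-0.18), Col5a3 (-0.20), Col4a5 (-0.33) and Col15a1 (-0.43) in DR against AL, Col27a1 (-1.03), Col4a3 (-0.0675), Col4a5 (-0.91) and Col4a6 (-0.97) in DR-AL against AL, and Col4a3 (-0.18), Col4a4 (-0.29) and Col7a1 (-0.13) in DR-AL against DR. Fold changes not called by counts were left out of this list. Col3a1 and Col4a2, at 0.12 and 0.0087 by counts in DR against AL, fell by FPKM (59.2 to 39.0 and 58.1 to 33.6). Without the fat libraries, called values of these 2 classes in brain against periphery changed sign for Col1a1 (0.59), Col1a2 (0.99), Col5a1 (0.73), Col4a1 (1.39) and Col15a1 (0.49).

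DESeq size factors changed the call of 15 of 168 named values within tissues (8 lost, 7 gained) and of 0 of 160 over all libraries. DESeq2 changed 0 of 160, no filter 3 of 160 and a mean of at least 10 counts 1 of 168. Other settings changed more. Within tissues, a fold change of at least 2 lost 75 of 168 calls, and an assumed coefficient of variation of 0.1 lost 53. FPKM changed the call or sign of 33 of 168. Over all libraries, leaving out 1 diet or tissue changed 40 of 600, and leaving out fat 10 of 60. In sum, 663 of 840 values within tissues and 1246 of 1300 over all libraries stayed the same.

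Without 1 diet, hypothalamus against hippocampus gave 11 to 22 calls. No paired analysis was possible within a tissue because each tissue and diet has 1 library. Without the diet term, the block of mice that share a pool, calls were 37 for fat against liver, 40 for fat against colon, 28 for colon against liver, 23 for hypothalamus against hippocampus and 33 for brain against periphery, and 1 of 100 named values changed its call. The collagen share without the 10 most abundant genes was 0.115%, 0.125% and 0.0842% in AL, DR and DR-AL liver, 0.495%, 0.505% and 0.385% in fat, 0.00626%, 0.00832% and 0.00689% in colon, 0.0953%, 0.104% and 0.0872% in hypothalamus and 0.0326%, 0.0338% and 0.0393% in hippocampus. Summed FPKM, whose scale differed between libraries, was 398, 423 and 286 in liver, 462, 289 and 124 in fat, 12.3, 16.3 and 14.2 in colon, 78.0, 85.6 and 72.3 in hypothalamus and 41.8, 44.3 and 51.6 in hippocampus.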
